A study of Mus musculus with 16 samples.

Results

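Transcript levels of 6 genes used as markers of pericytes (Rgs5, Pdgfrb, Cspg4, Abcc9, Notch3 and Higd1b) were followed in denervated and innervated mouse hindlimb muscle. The genes were taken by name from a table of 55487 genes, of which 31476 had at least 1 count, and all 6 were found once and passed the filter on low counts in every comparison. Young male C57BL/6 mice (C57BL/6 J in the methods of the study) underwent unilateral transection of the sciatic nerve (DEN) or a sham operation that left the nerve intact, and muscles were collected 21 days later. The 16 libraries formed 4 groups of 4, DEN fibers with sham fibers as their reference and DEN whole muscle with sham whole muscle as theirs. Single fibers were freed by collagenase from the extensor digitorum longus (EDL) and pooled per sample, whereas whole muscle was the tibialis anterior (TA), so preparation and muscle cannot be told apart. Each group is described by the study as separate animals, but whether EDL and TA came from the same mice was not given in the sources used here. The comparisons asked what DEN changed in each preparation, whether the 2 changes differed, and how fibers differed from whole muscle.

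Pericytes are mural cells that lie within the basement membrane of capillaries, in contact with endothelial cells, and in muscle they lie close to the fibers. Endothelial PDGF-B recruits and maintains them through the receptor PDGFR-beta, encoded by Pdgfrb, and endothelial Jagged1 activates the receptor encoded by Notch3, which is also needed in arterial smooth muscle. Cspg4 encodes the proteoglycan NG2 on the pericyte surface. Rgs5 encodes a GTPase activator that shortens signalling through Gq and Gi proteins. Abcc9 encodes SUR2, the sulfonylurea receptor that forms ATP-sensitive potassium channels with Kir6.1 in mural cells and with Kir6.2 in muscle fibers, and Higd1b encodes a HIG1 domain protein of the mitochondrion. None of the 6 is particular to pericytes in muscle, since Abcc9 is also expressed by the fibers, Notch3 by smooth muscle and muscle stem cells, and Pdgfrb and Cspg4 by smooth muscle and stromal cells.

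The promoters of Rgs5, Cspg4, Abcc9 and Notch3 are shown because these genes fell together in DEN whole muscle on the main scale and did not move together in fibers. The sequences are RefSeq promoters of GRCm38.p6, each 300 bases long, with 250 bases before and 50 after the annotated start, and 4 of the 6 genes matched an entry in the table used. Capitals mark matches to an E-box (CANNTG) or to the core bound by RBPJ, the DNA-binding partner of Notch receptors (TGGGAA), searched on both strands; the CArG box of smooth muscle genes was searched as well.
Rgs5, chr1:169655251-169655550, plus strand: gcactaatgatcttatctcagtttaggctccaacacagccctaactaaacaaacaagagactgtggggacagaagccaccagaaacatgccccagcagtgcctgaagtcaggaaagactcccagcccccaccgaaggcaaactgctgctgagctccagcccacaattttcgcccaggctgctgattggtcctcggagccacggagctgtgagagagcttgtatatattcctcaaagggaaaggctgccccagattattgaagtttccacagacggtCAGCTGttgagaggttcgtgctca
Cspg4, chr9:56864854-56865153, plus strand: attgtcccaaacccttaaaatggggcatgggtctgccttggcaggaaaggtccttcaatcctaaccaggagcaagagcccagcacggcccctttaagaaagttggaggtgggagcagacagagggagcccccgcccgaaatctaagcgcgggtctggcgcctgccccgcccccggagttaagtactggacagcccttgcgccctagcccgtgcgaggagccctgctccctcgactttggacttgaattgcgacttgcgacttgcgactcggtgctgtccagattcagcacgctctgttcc
Abcc9, chr6:142702225-142702524, minus strand: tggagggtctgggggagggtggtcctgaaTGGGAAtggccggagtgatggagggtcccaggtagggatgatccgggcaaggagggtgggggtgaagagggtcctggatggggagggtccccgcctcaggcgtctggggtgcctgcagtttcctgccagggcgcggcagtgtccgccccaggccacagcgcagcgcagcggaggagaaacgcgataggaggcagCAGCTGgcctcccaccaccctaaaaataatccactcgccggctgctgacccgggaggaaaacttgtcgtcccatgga
Notch3, chr17:32166841-32167140, minus strand: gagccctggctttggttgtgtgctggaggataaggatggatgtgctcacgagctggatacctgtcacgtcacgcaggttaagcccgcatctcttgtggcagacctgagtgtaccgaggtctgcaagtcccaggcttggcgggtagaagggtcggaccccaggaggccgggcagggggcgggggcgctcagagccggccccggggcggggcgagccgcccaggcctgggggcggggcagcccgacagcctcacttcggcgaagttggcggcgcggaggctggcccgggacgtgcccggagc
Rgs5 and Abcc9 each held 1 E-box with the letters CAGCTG, at bases 277 to 282 and 224 to 229 of the printed sequences. Abcc9 held 1 RBPJ core at bases 30 to 35. Of 32851 promoters of the same length, 72.3% held an E-box, 25.6% the RBPJ core and 1.63% a CArG box, and none of the 4 promoters held a CArG box. GC content was 52.3% for Rgs5, 60.0% for Cspg4, 65.7% for Abcc9 and 70.0% for Notch3.

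On GRCm38, Rgs5 (ENSMUSG00000026678) lies on the plus strand of chromosome 1 at 169655501 to 169695813. Pdgfrb (ENSMUSG00000024620) lies on the plus strand of chromosome 18 at 61045150 to 61085061. Cspg4 (ENSMUSG00000032911) lies on the plus strand of chromosome 9 at 56865033 to 56899870. Abcc9 (ENSMUSG00000030249) lies on the minus strand of chromosome 6 at 142587862 to 142702315, and Notch3 (ENSMUSG00000038146) on the minus strand of chromosome 17 at 32120820 to 32166852. Higd1b (ENSMUSG00000020928) lies on the plus strand of chromosome 11 at 102835849 to 102838040. Counts were of reads over annotated exons of each gene on its own strand. No annotated gene overlapped a member on the same strand, while 5330439B14Rik overlapped Abcc9 and Gm17276 overlapped Notch3 on the opposite strand.

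Depth ranged from 4.76e+07 to 6.23e+07 counts per library. All 5 genes of a denervation list (Chrna1, Chrng, Chrnd, Myog and Musk) rose after DEN in both preparations (edgeR quasi-likelihood test, adjusted p under 0.05), so the surgery labels matched the data. Levels are given as RPM, in which the counts of a gene are scaled to the total counts of its library. Tests were run with edgeR after TMM scaling, which sets the typical gene to no change. Scaling to total counts in its place moved the median log2 difference of all genes to 0.49 for DEN against sham in fibers and to 0.45 in whole muscle, so a gene with equal RPM in both groups scores below 0 after TMM scaling. Differences below are therefore relative to the typical gene, and values with total counts are given where they turned a result round or ended its call. Among fiber libraries 2 stood apart. Sham fiber library 3 had a summed level of 1816 RPM over 11 fibro-adipogenic progenitor genes, against 508.9, 585.2 and 688.7 RPM in the other sham fiber libraries, and the highest sum of Schwann cell genes (205.3 RPM). DEN fiber library 4 had 1746 RPM over 10 smooth muscle contractile genes, against 1025, 481.4 and 748.7 RPM in DEN fiber libraries 1, 2 and 3. Both were kept, and counts of calls in fibers and in the interaction are also given without them where they moved.

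**Figure D1:**
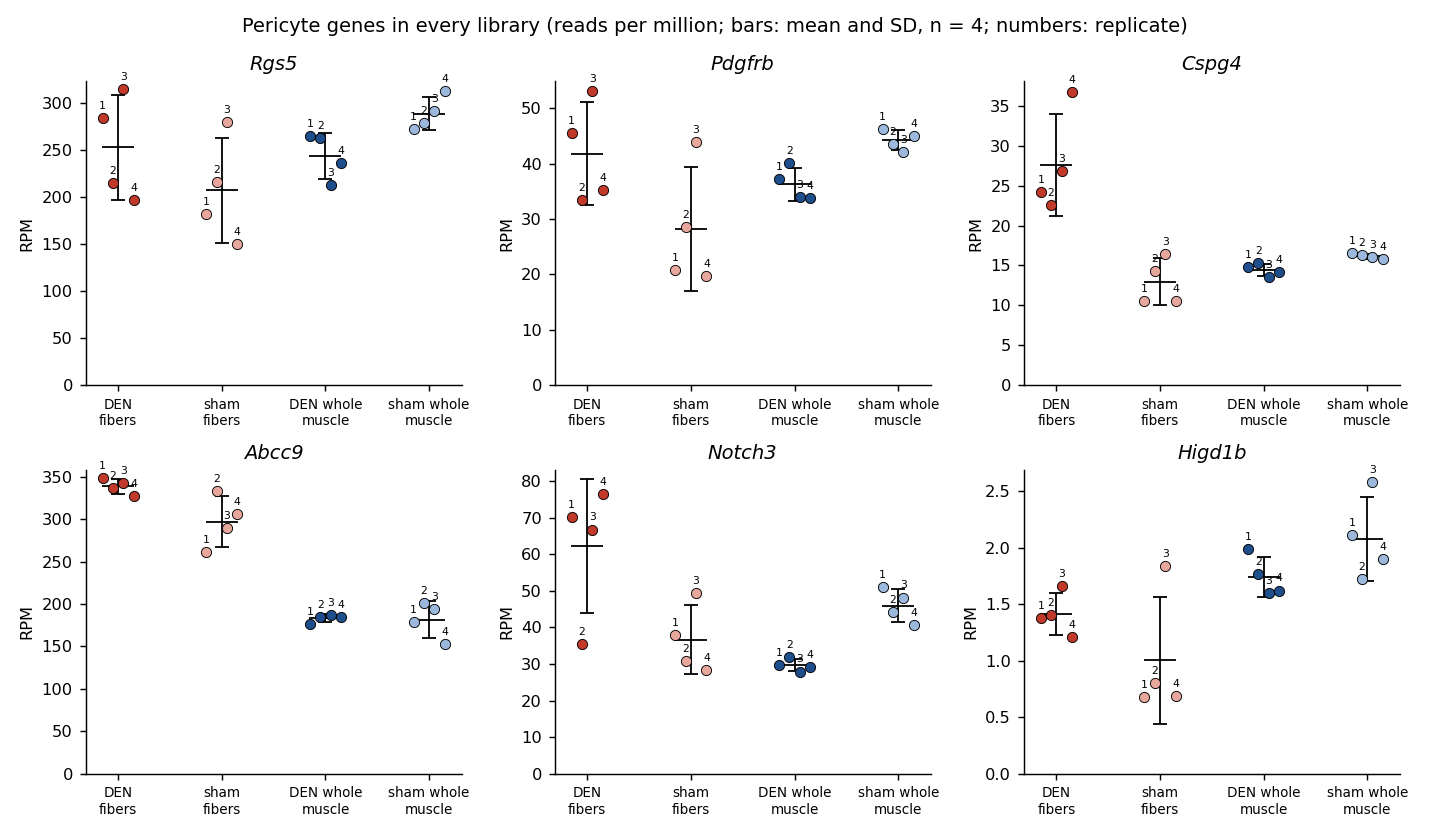
Levels of the 6 pericyte genes in each library (y axis, RPM, starting at 0) for the 4 groups, each DEN group left of its sham group; points are libraries numbered by replicate, and bars are the mean and SD of 4 libraries. Fiber libraries are more spread than whole muscle libraries for Rgs5, Pdgfrb, Cspg4 and Notch3 but not for Abcc9. Sham fiber library 3 is the highest of its group for every gene but Abcc9.

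Per length, Rgs5 and Abcc9 were the most abundant of the 6. Rgs5 ranged from 33.1 to 69.3 RPKM over the 16 libraries and Abcc9 from 18.2 to 41.6 RPKM. Pdgfrb (3.59 to 9.70 RPKM) and Notch3 (3.46 to 9.44 RPKM) were lower. Cspg4 (0.885 to 3.08 RPKM) and Higd1b (0.804 to 3.05 RPKM) were the lowest. Higd1b rested on 33 to 161 counts per library, so its values carried more counting error than those of the other members.

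In DEN whole muscle, all 6 pericyte genes fell relative to the typical gene (edgeR quasi-likelihood test with p adjusted after Benjamini and Hochberg, under 0.05). Their median log2 difference was −0.68, beside 0.02 over all tested genes. Of 16379 tested genes, 66.2% passed the threshold, 34.0% as higher and 32.2% as lower, which is the background for this count of 6. Scaled to total counts, 4 of the 6 passed as lower (Rgs5, Pdgfrb, Cspg4 and Notch3), beside 13.9% of all genes as lower, 60.9% as higher and 74.8% in either direction. In whole tissue, fewer cells of a type and less RNA per cell cannot be told apart.

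Notch3, the receptor for endothelial Jagged1, fell the most of the 6. Its level was 29.7, 31.8, 28.0 and 29.1 RPM in DEN whole muscle, against 51.0, 44.1, 48.2 and 40.7 RPM in sham whole muscle. Every DEN library was below every sham library. The log2 difference was −1.06 (SE 0.07, adjusted p = 1.88e-07), a 0.479-fold level on the TMM scale.

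Pdgfrb, the receptor for PDGF-B, was at 37.2, 40.1, 33.9 and 33.9 RPM in DEN whole muscle, against 46.3, 43.5, 42.1 and 45.0 RPM in sham whole muscle. The groups did not overlap, and the log2 difference was −0.72 (SE 0.05, adjusted p = 8.11e-07). Rgs5 was at 264, 262, 213 and 236 RPM in DEN whole muscle, against 272, 279, 291 and 312 RPM in sham whole muscle. Its groups were separated by a narrow gap in RPM, and the log2 difference was −0.67 (SE 0.07, adjusted p = 1.13e-05). Cspg4 was at 14.7, 15.3, 13.6 and 14.1 RPM in DEN whole muscle, against 16.5, 16.3, 16.0 and 15.8 RPM in sham whole muscle. The difference in mean RPM was small, but so was the spread (SD 0.735 and 0.314 RPM, n = 4 each), and the log2 difference was −0.59 (SE 0.05, adjusted p = 1.19e-06). In all, 69.2% of tested genes had groups that did not overlap in RPM and 12.3% did so as lower.

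Higd1b and Abcc9 overlapped in RPM. Higd1b was at 1.99, 1.77, 1.602 and 1.62 RPM in DEN whole muscle, against 2.11, 1.72, 2.58 and 1.91 RPM in sham whole muscle, with a log2 difference of −0.69 (SE 0.14, adjusted p = 0.0016). Scaled to total counts its log2 difference was −0.26 (adjusted p = 0.13). Abcc9 was at 176, 185, 187 and 185 RPM in DEN whole muscle, against 178, 201, 194 and 152 RPM in sham whole muscle. Its fall relative to the typical gene was −0.42 (SE 0.08, adjusted p = 0.000802), but scaled to total counts the log2 difference was 0.01 (adjusted p = 0.88).

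In fibers, the 6 genes did not move together. Cspg4 rose, Abcc9 fell relative to the typical gene, and the other 4 did not pass the test. Of 16724 tested genes, 54.1% passed the threshold, 27.1% as higher and 27.0% as lower, and 2 of 6 was below that background. Scaled to total counts, 2 of the 6 passed as higher (Cspg4 and Notch3) and none as lower, beside 59.5% of all genes as higher, 8.93% as lower and 68.4% in either direction. The median of the 6 was 0.05, beside 0.01 over all tested genes.

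Cspg4, encoding NG2, was at 24.2, 22.5, 26.9 and 36.8 RPM in DEN fibers, against 10.6, 14.3, 16.5 and 10.6 RPM in sham fibers. Every DEN library was above every sham library, as was the case for 54.4% of tested genes. The log2 difference was 0.61 (SE 0.18, adjusted p = 0.0158), and it was 0.42 (adjusted p = 0.025) without DEN fiber library 4, the highest for Cspg4 and for smooth muscle genes. Without that library and sham fiber library 3 together it was 0.52 (adjusted p = 0.0038). Scaled to total counts it was 1.09 (adjusted p = 0.00046).

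Abcc9 was at 348, 337, 343 and 327 RPM in DEN fibers, against 261, 333, 289 and 306 RPM in sham fibers. In RPM the DEN libraries were at the top of the sham range or above it, whereas relative to the typical gene Abcc9 fell by 0.30 on the log2 scale (SE 0.07, adjusted p = 0.00644), and scaled to total counts the log2 difference was 0.19 (adjusted p = 0.062). The direction for Abcc9 depended on the scale. TMM-scaled levels were 281 ± 11.4 CPM in DEN fibers and 347 ± 25.3 CPM in sham fibers (SD, n = 4 each).

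The other 4 genes were spread within both fiber groups. Notch3 was at 70.2, 35.5, 66.8 and 76.4 RPM in DEN fibers, against 37.8, 30.8, 49.5 and 28.5 RPM in sham fibers. DEN fiber library 2 lay inside the sham range and the other DEN libraries above it. The log2 difference was 0.27 (SE 0.24, adjusted p = 0.358), and scaled to total counts it was 0.76 (adjusted p = 0.015).

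Pdgfrb was at 45.6, 33.4, 53.1 and 35.3 RPM in DEN fibers, against 20.7, 28.6, 44.0 and 19.7 RPM in sham fibers, with a log2 difference of 0.08 (SE 0.22, adjusted p = 0.772). Rgs5 was at 284, 215, 315.0 and 196 RPM in DEN fibers, against 181, 216, 280.1 and 150.3 RPM in sham fibers. Its log2 difference was −0.20 (SE 0.18, adjusted p = 0.361), and scaled to total counts it was 0.29 (adjusted p = 0.22). For both genes the ranges of DEN and sham fibers overlapped, and sham fiber library 3 was the highest of its group.

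Higd1b was at 1.38, 1.40, 1.66 and 1.21 RPM in DEN fibers, against 0.681, 0.804, 1.84 and 0.687 RPM in sham fibers. Sham fiber library 3 was above every DEN library, and the other 3 sham libraries were below every DEN library. The log2 difference was 0.01 (SE 0.29, adjusted p = 0.984), and without sham fiber library 3 it was 0.44 (adjusted p = 0.042). Of the 6 genes, 3 passed the test without that library (Cspg4, Abcc9 and Higd1b). Fits without 1 library called 8242 to 9299 of all genes, beside 9047 with all libraries. In sham fiber library 3 the progenitor, Schwann cell and other mural cell sums were also the highest of the group. So were its endothelial (830.2 RPM), macrophage (51.67 RPM) and muscle stem cell (131.7 RPM) sums. The part of these cells in the Higd1b value was not tested.

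**Figure D2:**
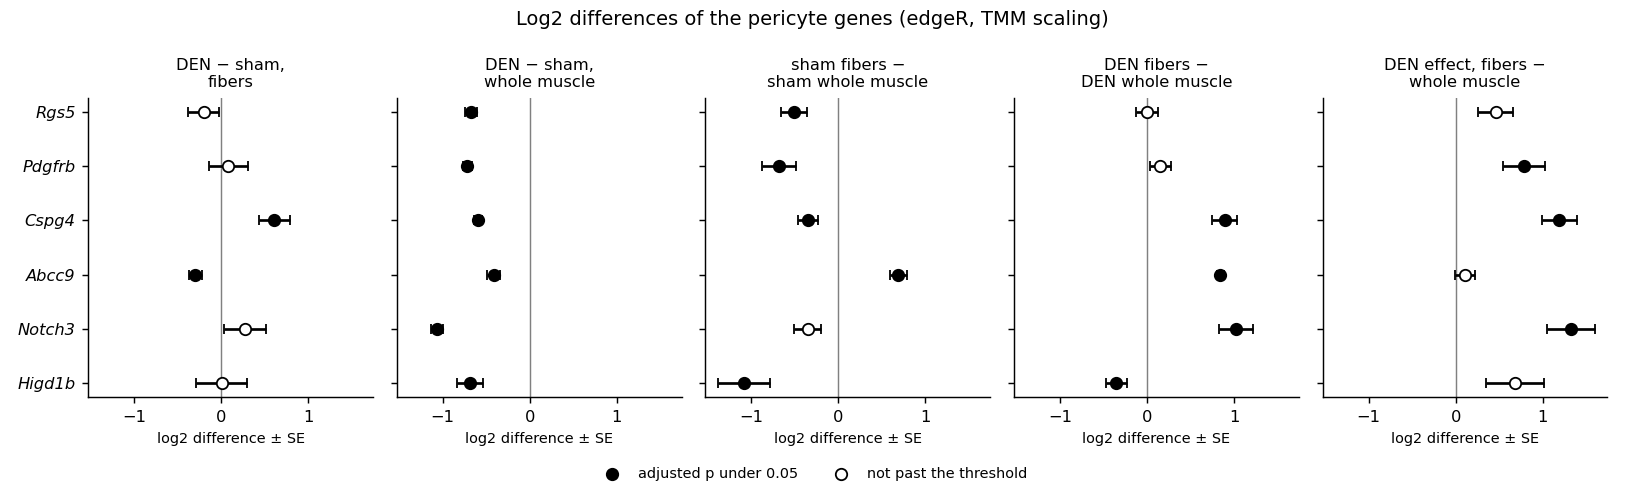
Log2 differences of the 6 genes (x axis, with SE as bars, edgeR after TMM scaling) in the 4 comparisons of groups and in the interaction; filled points passed an adjusted p of 0.05. All 6 lie below 0 for DEN against sham whole muscle, where total counts would bring Abcc9 to 0.01, while in fibers they lie from −0.30 (Abcc9, 0.19 with total counts) to 0.61 (Cspg4).

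The DEN effect was higher in fibers than in whole muscle for Notch3, Cspg4 and Pdgfrb. The difference of the log2 effects was 1.32 for Notch3 (SE 0.27, adjusted p = 0.0034), 1.19 for Cspg4 (SE 0.20, adjusted p = 0.00074) and 0.79 for Pdgfrb (SE 0.25, adjusted p = 0.0352). It was 0.68 for Higd1b (SE 0.33, adjusted p = 0.17), 0.46 for Rgs5 (SE 0.20, adjusted p = 0.13) and 0.11 for Abcc9 (SE 0.11, adjusted p = 0.546). Of 17497 tested genes, 18.9% passed this test and 7.09% passed it as higher in fibers, as 3 of the 6 did. The median of the 6 was 0.73, beside −0.03 over all tested genes. Without sham fiber library 3, 5 of the 6 passed, adding Rgs5 (0.61, adjusted p = 0.025) and Higd1b (1.13, adjusted p = 0.0018), and the same number passed without DEN fiber library 4 as well. The background moved too, since fits without 1 library called 2475 to 3769 of all genes, beside 3307 with all libraries. With total counts 2 passed (Notch3 and Cspg4, beside 8.5% of all genes as higher), with Pdgfrb at 0.85 (adjusted p = 0.051).

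Genes of other cells moved beside these differences. The 10 smooth muscle genes summed to between 481.4 and 1746 RPM in DEN fibers, against 742.9 to 896.9 RPM in sham fibers, and 6 rose, 1 fell (Synpo2) and 3 did not pass the test, with 3 rising without DEN fiber library 4 and sham fiber library 3. Synpo2, a gene also expressed by muscle fibers, made up most of the sham sum and was at 333.0 ± 73.2 RPM in DEN fibers and 608.6 ± 104.9 RPM in sham fibers. The other 9 genes summed to 733.5, 114.4, 492.9 and 1328 RPM in DEN fibers, against 179.5, 135.9, 220.8 and 169.1 RPM in sham fibers, so 3 DEN libraries were above the sham range and library 2 was below it. Cnn1, encoding the actin-binding protein calponin, was at 14.97 ± 12.1 RPM in DEN fibers and 1.22 ± 0.355 RPM in sham fibers (3.12, SE 0.84, adjusted p = 0.0105). Myh11, the smooth muscle myosin heavy chain and a gene chosen for display after its values were seen, was at 249.5, 35.2, 157 and 503 RPM in DEN fibers, against 60.4, 47.0, 66.5 and 52.7 RPM in sham fibers. In DEN fibers the order of the libraries for Notch3 (2, 3, 1, 4 from low to high) was also their order for the smooth muscle sum, with and without Synpo2. The order for Cspg4 there was 2, 1, 3, 4. In sham fibers the Notch3 order (4, 2, 1, 3) did not match that of the smooth muscle sum. That sum ran 3, 1, 4, 2 with Synpo2 and 2, 4, 1, 3 without it. Of 15 endothelial genes, 7 fell in DEN fibers and 8 did not pass the test, whereas with total counts 4 rose and none fell, and without both of those libraries 4 fell. The 11 progenitor genes summed to between 1147 and 1722 RPM in DEN fibers, against 508.9 to 1816 RPM in sham fibers, where the highest value was that of library 3. Of these genes 4 rose and none fell, and without DEN fiber library 4 and sham fiber library 3, 7 rose. The part of progenitor RNA in the Pdgfrb values was not tested. All 10 macrophage genes rose in DEN fibers, with a median of 1.71 and a sum of 117.9 to 179.4 RPM in DEN fibers, against 24.85 to 51.67 RPM in sham fibers. Of 10 Schwann cell genes, 7 fell and 1 rose, with a median of −2.27 and a sum of 29.8 to 82.97 RPM in DEN fibers, against 106.8 to 205.3 RPM in sham fibers. Both counts were the same with total counts and without DEN fiber library 4 and sham fiber library 3, and the part of these cells in the pericyte gene values was not tested. The part of smooth muscle RNA in the Notch3 and Cspg4 values of fibers was not tested.

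**Figure D3:**
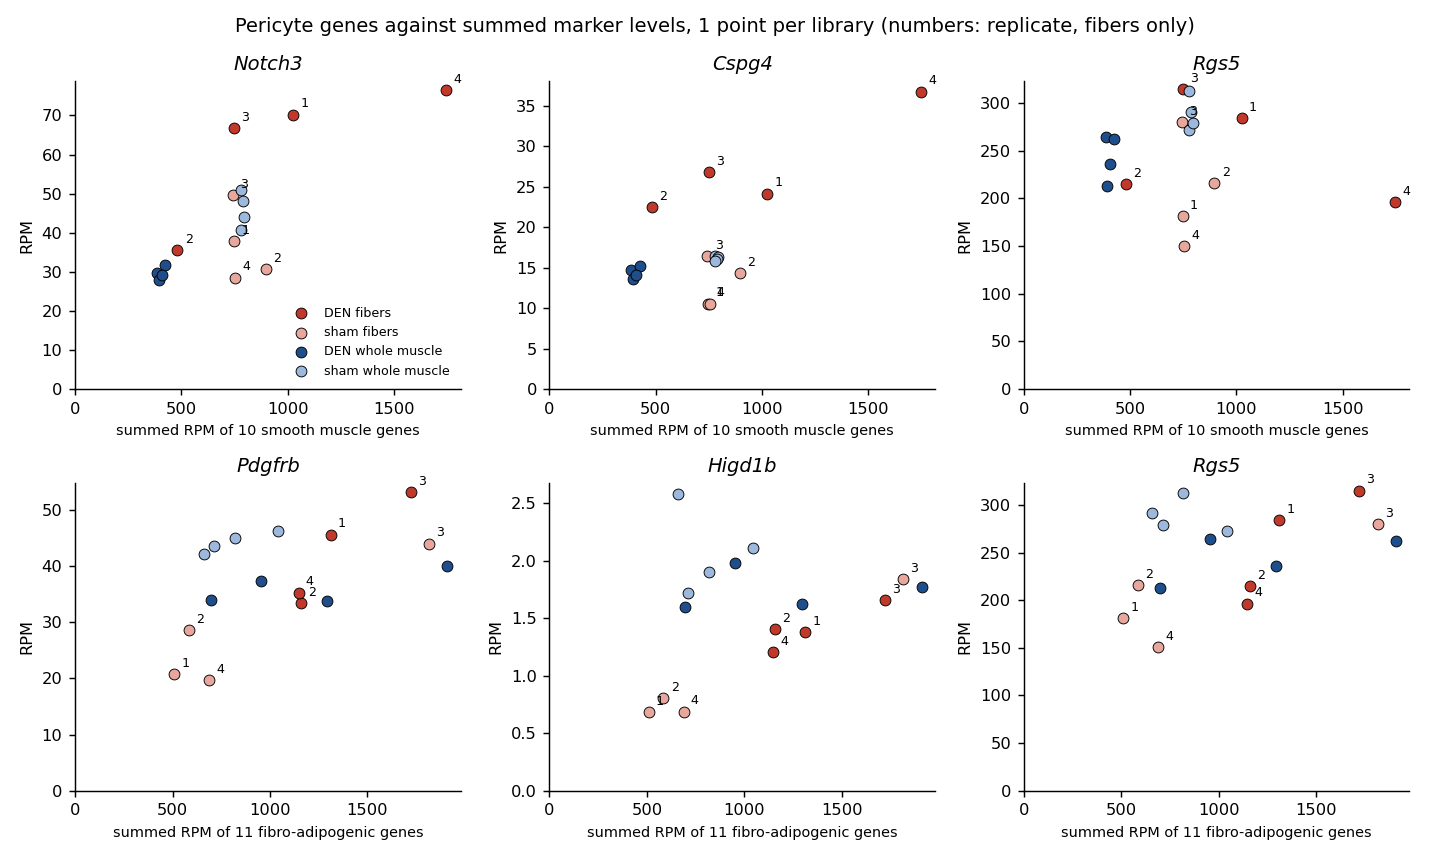
Level of a pericyte gene (y axis, RPM) against the summed level of smooth muscle genes with Synpo2 included (upper row) or fibro-adipogenic progenitor genes (lower row) in the same library (x axis, RPM), 1 point per library, with fiber libraries numbered by replicate. DEN fiber library 4 lies far right in the upper row at 1746 RPM, with the highest Notch3 (76.4 RPM) and Cspg4 (36.8 RPM). In the lower row sham fiber library 3, at 1816 RPM, lies far right of the other sham fiber libraries. A DEN whole muscle library lies further right at 1910 RPM, and DEN fiber library 3 is at 1722 RPM.

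In whole muscle, markers of the vessel wall were lower together with the pericyte genes. Of 16 other mural cell genes, 12 fell, 1 rose and 3 did not pass the test, with a median of −0.58, and with total counts 5 fell and 3 rose. Of 15 endothelial genes, 14 fell and 1 did not pass, and with total counts 10 fell. Their sum was between 504.2 and 588.5 RPM in DEN whole muscle, against 675.6 to 723.7 RPM in sham whole muscle. Of 9 tested smooth muscle genes, 8 fell (7 with total counts). The smooth muscle sum was between 385.3 and 424.8 RPM in DEN whole muscle, against 777.7 to 794.9 RPM in sham whole muscle, but most of it was Synpo2 (318.5 ± 12.3 RPM in DEN and 669 ± 21.0 RPM in sham whole muscle). No gene of these 3 lists was without counts in any group. The fall was not limited to the vessel wall. Muscle fiber genes fell in 6 of 7 cases (median −0.78), and Schwann cell genes in 6 of 10 with 1 rising (median −1.26). Progenitor genes fell in 6 of 11 cases with 1 rising. With total counts 5, 5 and 3 of these fell and 1, 2 and 4 rose, in that order. Macrophage genes rose in 4 of 10 cases and 1 fell (9 and 0 with total counts). The part of vessel density or of fiber RNA in the level of the pericyte genes was not tested.

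Compared with sham whole muscle, sham fibers had lower levels of 4 of the 6 pericyte genes and a higher level of Abcc9. Mean RPM was 207 ± 55.7 in sham fibers and 289 ± 17.7 in sham whole muscle for Rgs5, and 28.3 ± 11.2 and 44.2 ± 1.81 for Pdgfrb (SD, n = 4 each). The log2 difference was −1.08 for Higd1b (SE 0.30, adjusted p = 0.0124), −0.68 for Pdgfrb (SE 0.20, adjusted p = 0.0159), −0.51 for Rgs5 (SE 0.15, adjusted p = 0.017) and −0.35 for Cspg4 (SE 0.12, adjusted p = 0.03). Notch3 was lower by 0.35 on the log2 scale (SE 0.15, adjusted p = 0.0847) and did not pass. Abcc9 was higher in sham fibers, at 297 ± 30.1 RPM against 181 ± 21.7 RPM in sham whole muscle, with a log2 difference of 0.69 (SE 0.10, adjusted p = 0.000297). Of 16005 tested genes, 48.8% passed the threshold, 25.5% as higher and 23.2% as lower, and of the 6 pericyte genes 5 passed, 1 as higher and 4 as lower. The Cspg4 call was lost with total counts (−0.32, adjusted p = 0.084, where 19.4% of all genes passed as lower), and without sham fiber library 3 Notch3 passed as well (−0.50, adjusted p = 0.012).

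Of the other mural cell genes, 8 of 16 were lower in sham fibers, none was higher and 8 did not pass the test. Of 11 progenitor genes, 5 were lower. Of 9 tested smooth muscle genes, 4 were higher in sham fibers, none was lower and 5 did not pass, with a median of 0.68. Of 15 endothelial genes, 1 was lower and 3 were higher. The endothelial sum was between 628.5 and 830.2 RPM in sham fibers, against 675.6 to 723.7 RPM in sham whole muscle, and the ranges overlapped.

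The comparison of DEN fibers with DEN whole muscle gave another picture. Notch3 was higher in DEN fibers by 1.02 (SE 0.20, adjusted p = 0.00135), Cspg4 by 0.89 (SE 0.15, adjusted p = 0.000486) and Abcc9 by 0.84 (SE 0.04, adjusted p = 2.74e-07) on the log2 scale. For these 3 genes every DEN fiber library was above every DEN whole muscle library in RPM, as it was for 29.9% of tested genes. Higd1b was lower by 0.35 (SE 0.12, adjusted p = 0.0299), a call that was lost in 5 of 6 other settings and in 5 of 8 fits without 1 library (DEN whole muscle library 1 or 2, DEN fiber library 1, 2 or 4). These fits gave −0.41 to −0.29 (adjusted p = 0.023 to 0.087), and total counts gave −0.30 (adjusted p = 0.087), with 22.1% of all genes passing as lower. Pdgfrb (0.15, SE 0.12, adjusted p = 0.289) and Rgs5 (0.00, SE 0.12, adjusted p = 0.996) did not pass. Of 16856 tested genes, 56.6% passed the threshold, 30.2% as higher and 26.4% as lower. Smooth muscle genes were higher in DEN fibers in 8 of 9 tested cases with a median log2 difference of 3.28, and endothelial genes in 10 of 15. Between the sham groups smooth muscle genes were already higher in fibers in 4 of 9 cases, with a median of 0.68. All 6 muscle stem cell genes were higher in DEN fibers (median 0.97). Of 7 tested Schwann cell genes, 6 were higher and 1 was lower (median 1.37), and of 10 macrophage genes 4 were higher and 3 lower. The part of smooth muscle, endothelial, muscle stem cell, Schwann cell and macrophage RNA in the pericyte gene values was not tested.

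By mean RPM, the order of the groups differed between genes. Rgs5 and Pdgfrb were highest in sham whole muscle, then DEN fibers, DEN whole muscle and sham fibers, and each neighbour in that order overlapped the next in RPM. Cspg4 was highest in DEN fibers (27.6 ± 6.39 RPM), followed by sham whole muscle (16.2 ± 0.314 RPM), DEN whole muscle (14.4 ± 0.735 RPM) and sham fibers (13.0 ± 2.92 RPM). Sham fibers overlapped DEN whole muscle in RPM. On the TMM scale DEN fibers (19.2 to 31.8 CPM) overlapped sham whole muscle (18.4 to 19.3 CPM). Abcc9 was highest in DEN fibers (339 ± 9.04 RPM) and sham fibers, both above DEN whole muscle (183 ± 4.61 RPM) and sham whole muscle (181 ± 21.7 RPM), which overlapped each other. Notch3 was highest in DEN fibers (62.2 ± 18.3 RPM), followed by sham whole muscle (46.0 ± 4.54 RPM), sham fibers (36.7 ± 9.46 RPM) and DEN whole muscle (29.7 ± 1.62 RPM), each overlapping the next. Higd1b was highest in sham whole muscle (2.08 ± 0.371 RPM), followed by DEN whole muscle, DEN fibers and sham fibers, and neighbours overlapped there as well. On the TMM scale the order by mean RPM held for Higd1b only. Notch3 was then highest in sham whole muscle (54.1 CPM, against 51.6 CPM in DEN fibers). Abcc9 was highest in sham fibers (347 CPM, against 281 CPM in DEN fibers), and Rgs5 was lowest in DEN fibers (208 CPM).

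Fiber libraries varied more than whole muscle libraries in most genes. The coefficient of variation of Pdgfrb was 22.1% in DEN fibers and 39.7% in sham fibers, against 8.25% in DEN whole muscle and 4.09% in sham whole muscle. For Cspg4 it was 23.2% in DEN fibers and 22.5% in sham fibers, against 5.09% in DEN whole muscle and 1.94% in sham whole muscle. Abcc9 was an exception, with 2.67% in DEN fibers and 10.1% in sham fibers, against 2.51% in DEN whole muscle and 12.0% in sham whole muscle. For Higd1b, DEN fibers (13.1%) varied less than sham whole muscle (17.8%), while sham fibers varied most (55.9%).

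Counts of each gene per Pdgfrb count of the same library do not depend on scaling, and are given as a description. Rgs5 ranged from 5.57 to 8.76 counts per Pdgfrb count over the 16 libraries. In DEN fibers its median was 6.08 (5.57 to 6.43), against 7.59 (6.37 to 8.76) in sham fibers, with a narrow overlap. In DEN whole muscle its median was 6.76 (6.28 to 7.10), against 6.66 (5.88 to 6.94) in sham whole muscle. Notch3 was at a median of 0.811 (0.794 to 0.859) in DEN whole muscle, against 1.06 (0.904 to 1.14) in sham whole muscle. The DEN and sham whole muscle ranges of the Notch3 ratio did not overlap. In fibers the Notch3 ratio ran from 1.06 to 2.17 after DEN, against 1.07 to 1.83 after sham. The median Cspg4 ratio was 0.603 (0.505 to 1.043) in DEN fibers, against 0.505 (0.374 to 0.537) in sham fibers. It was 0.398 (0.381 to 0.417) in DEN whole muscle and 0.366 (0.351 to 0.381) in sham whole muscle. Abcc9 was at a median of 8.46 (6.449 to 10.09) in DEN fibers and 12.1 (6.574 to 15.54) in sham fibers. In whole muscle its median was 5.10 (4.615 to 5.504) after DEN and 4.23 (3.385 to 4.625) after sham. In fibers the DEN and sham ranges of both ratios overlapped.

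**Figure D4:**
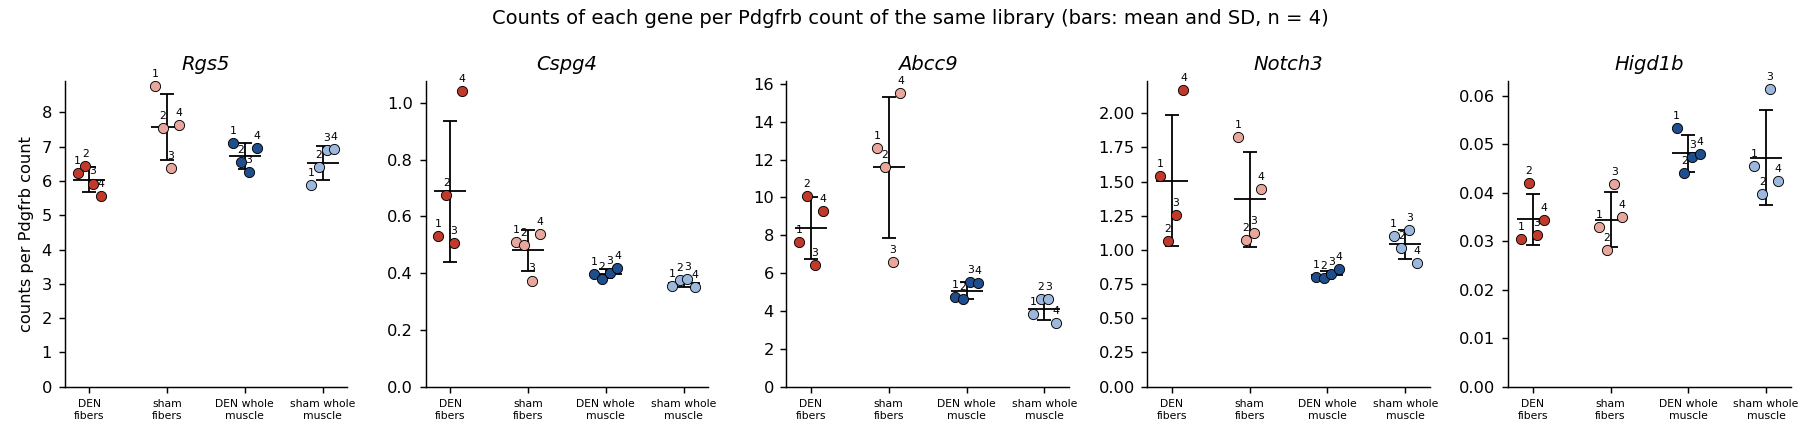
Counts of Rgs5, Cspg4, Abcc9, Notch3 and Higd1b per Pdgfrb count in the same library (y axis, each panel with its own scale from 0) in the 4 groups, with points as libraries numbered by replicate and bars as the mean and SD of 4. The Rgs5 ratio lies between 5.57 and 6.43 in DEN fibers and between 6.37 and 8.76 in sham fibers, Abcc9 is spread most in sham fibers, and the Notch3 ratio is lower in DEN whole muscle than in sham whole muscle.

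Abcc9 was read beside the pore subunits it assembles with. Kcnj8, encoding Kir6.1 of mural cells, was at 6.39 ± 1.05 RPKM in DEN whole muscle and 8.62 ± 0.775 RPKM in sham whole muscle (SD, n = 4 each) and fell by 0.86 on the log2 scale (SE 0.10, adjusted p = 3.07e-05). In fibers it was at 5.23 ± 1.27 RPKM after DEN and 4.14 ± 1.12 RPKM after sham, and did not pass (−0.15, SE 0.19, adjusted p = 0.528). Kcnj11, encoding Kir6.2 of muscle fibers, was at 20.3 ± 1.49 RPKM in DEN fibers and 34.5 ± 2.80 RPKM in sham fibers, and fell by 1.25 on the log2 scale (SE 0.10, adjusted p = 6.21e-06). It fell to 25.4 ± 1.75 RPKM in DEN whole muscle, against 42.6 ± 1.12 RPKM in sham whole muscle (−1.18, SE 0.05, adjusted p = 1.24e-08). Both falls of Kcnj11 and that of Kcnj8 in whole muscle held with total counts. The difference between the DEN effects in fibers and whole muscle did not pass the test for Kcnj11 (−0.09, SE 0.11, adjusted p = 0.633), while that of Kcnj8 was 0.69 (SE 0.23, adjusted p = 0.0467), a call that total counts ended (0.76, adjusted p = 0.0607). Between preparations, Kcnj8 was lower in sham fibers than in sham whole muscle by 1.09 (SE 0.15, adjusted p = 0.000248), whereas Abcc9 was higher.

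**Figure D5:**
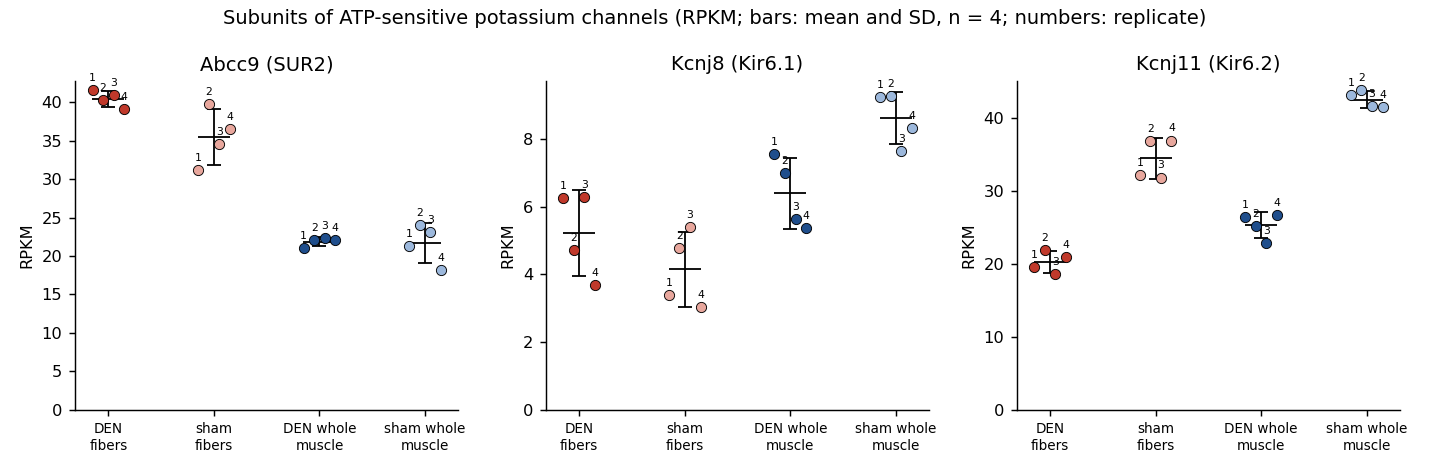
Levels of the channel subunits Abcc9 (SUR2), Kcnj8 (Kir6.1) and Kcnj11 (Kir6.2) in each library (y axis, RPKM, each panel with its own scale from 0), with bars as the mean and SD of 4 libraries. Kcnj11 is lower after DEN in both preparations without overlap, Kcnj8 is lower after DEN than after sham in whole muscle, and Abcc9 is higher in fibers than in whole muscle.

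Among 7 PDGF ligands and receptors, 6 fell in DEN whole muscle and 1 did not pass the test (4 fell with total counts). Pdgfb, the endothelial ligand of PDGFR-beta, was at 19.2 ± 1.41 RPM in DEN whole muscle and 31.4 ± 2.91 RPM in sham whole muscle, with a log2 difference of −1.14 (SE 0.08, adjusted p = 3.51e-07). In fibers 3 of the 7 fell relative to the typical gene and none rose, whereas with total counts none fell and 2 rose, and without DEN fiber library 4 and sham fiber library 3 the numbers were 4 and 2. Pdgfb was at 20.3 ± 3.09 RPM after DEN and 23.8 ± 1.91 RPM after sham (−0.73, SE 0.11, adjusted p = 0.00041; −0.22 with total counts, adjusted p = 0.0925). Pdgfb and Pdgfrb were both lower in DEN whole muscle on both scales.

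Among 14 Notch ligands, receptors and targets, 10 fell and 3 rose in DEN whole muscle (7 and 5 with total counts), and 4 fell and 2 rose in DEN fibers (1 and 8 with total counts). Jag1, the ligand of Notch3, fell in DEN whole muscle by 0.89 on the log2 scale (SE 0.09, adjusted p = 9.75e-06) and was at 0.01 in fibers (SE 0.18, adjusted p = 0.961; 0.50 with total counts, adjusted p = 0.0301). Heyl, a Notch target in mural cells, was at 7.78 ± 0.891 RPM in DEN whole muscle and 10.7 ± 0.847 RPM in sham whole muscle and fell by 0.88 (SE 0.09, adjusted p = 6.95e-06). In fibers Heyl was at 9.94 ± 1.63 RPM after DEN and 4.79 ± 1.26 RPM after sham and rose by 0.57 (SE 0.16, adjusted p = 0.0117). The Heyl difference between the 2 DEN effects was 1.44 (SE 0.18, adjusted p = 7.83e-05), in the direction of Notch3. Hes1, another target of the list, went the other way, at 34.4 ± 4.80 RPM in DEN whole muscle and 12.6 ± 3.71 RPM in sham whole muscle. In fibers Hes1 was at 91.6 ± 18.9 RPM after DEN and 102.5 ± 31.7 RPM after sham. The ligand Dll1 was also higher in DEN whole muscle (35.6 ± 6.28 RPM) than in sham whole muscle (8.78 ± 1.47 RPM). Notch2, which is also expressed by muscle stem cells and macrophages, rose in both, to 59.7 ± 10.5 RPM in DEN fibers, against 22.8 ± 5.47 RPM in sham fibers, and to 26.4 ± 3.77 RPM in DEN whole muscle, against 7.59 ± 1.35 RPM in sham whole muscle. The endothelial receptor Notch4 fell in whole muscle by 1.10 (SE 0.07, adjusted p = 3.01e-07).

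Of the R4 family of RGS proteins, to which Rgs5 belongs, 6 of 10 genes passed the filter on low counts in each DEN comparison. In whole muscle 3 fell (Rgs5, Rgs3 and Rgs4) and 2 rose (3 and 3 with total counts), and in fibers 2 fell and 1 rose (0 and 2 with total counts, 1 and 2 without DEN fiber library 4 and sham fiber library 3). Rgs4, also expressed by mural cells, fell in DEN whole muscle by 0.79 (SE 0.10, adjusted p = 2.92e-05), close to Rgs5, and was at 0.06 in fibers (SE 0.15, adjusted p = 0.769; 0.54 with total counts, adjusted p = 0.0172). Rgs2 moved the other way in whole muscle, at 10.95 ± 2.72 RPM in DEN whole muscle and 4.01 ± 0.920 RPM in sham whole muscle (1.01, SE 0.20, adjusted p = 0.00101).

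Of the 4 genes of the HIG1 domain family, 3 passed the filter on low counts, and in DEN whole muscle Higd1b fell and the other 2 did not pass the test (2 rose with total counts). Higd1a, a HIG1 domain protein of the respiratory chain found in most tissues, was at 69.2 ± 3.96 RPM in DEN whole muscle and 48.5 ± 2.00 RPM in sham whole muscle, equal to a log2 difference of 0.08 relative to the typical gene (SE 0.06, adjusted p = 0.225) and of 0.51 with total counts (adjusted p = 5.57e-06).

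Of 6 genes of the angiopoietin, S1P and cadherin links between endothelium and pericyte, 4 fell in DEN whole muscle (4 fell and 1 rose with total counts) and none passed the test in DEN fibers, where 1 rose with total counts and 1 without DEN fiber library 4 and sham fiber library 3. Angpt2, an endothelial factor that loosens the contact with pericytes, was at 1.80 ± 0.514 RPM in DEN whole muscle and 3.62 ± 0.589 RPM in sham whole muscle (−1.43, SE 0.20, adjusted p = 7.67e-05). Among the other mural cell genes, Vtn, the secreted protein vitronectin, fell in DEN whole muscle by 1.15 (SE 0.06, adjusted p = 5.61e-08). Gja4, a connexin of arterial vessels, fell there by 0.76 (SE 0.11, adjusted p = 0.00016) and rose in DEN fibers by 1.05 (SE 0.33, adjusted p = 0.0232), and the difference between the 2 effects was 1.79 (SE 0.38, adjusted p = 0.00441). Of the 16 other mural cell genes, Gja4 alone rose in DEN fibers, 1 fell and 14 did not pass the test. With total counts 9 rose and none fell there, and without DEN fiber library 4 and sham fiber library 3, 2 rose and none fell. For the interaction, 6 of the 16 other mural cell genes passed as higher in fibers and none as lower, and without DEN fiber library 4 and sham fiber library 3, 10 passed as higher.

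Likeness to each gene was measured over the 16 libraries as the root mean square difference in log2 TMM-scaled CPM, with each gene centred on its own mean, among 7049 genes that varied. The nearest to Cspg4 was Mcam (0.17), which encodes the mural and endothelial adhesion molecule CD146, followed by Wtip (0.18) and Mst1r (0.19). The nearest to Notch3 were Cacna1h (0.19), Mrvi1 (0.21) and Ace (0.21). Pdgfrb lay nearest D630003M21Rik and Septin8 (0.12 each) and Nynrin (0.13), and D630003M21Rik (0.15) was also among the nearest to Rgs5, after Pcdh1 (0.15) and Tnxa (0.15). Abcc9 lay nearest Zfp644 (0.07), Mon2 (0.08) and Herc2 (0.08), and Higd1b nearest Rem1, Gnb4 and Pde4c (0.17 each). No member was among the 3 nearest genes of another member. Mcam was at 41.4, 27.4, 46.5 and 57.1 RPM in DEN fibers, against 19.5, 22.7, 27.4 and 21.2 RPM in sham fibers, with the highest DEN value in library 4, as for Cspg4. These distances share the 16 libraries and the TMM scale with the tests above and carry no test of their own.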

How the data were processed

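RNA was sequenced from 16 libraries after polyA selection with a directional kit. Per the labels, reads were processed with bcl2fastq 2.20.0.422, cutadapt 2.1, TopHat2 2.1.0 and featureCounts 1.6.5 on GRCm38. The deposited counts are whole reads per gene, and depth was 4.76e+07 to 6.23e+07 counts per library. The authors' RPM values scale these counts to the total of each library, and recomputed values differed by at most 5.1e-11. For RPKM the authors also divided by gene length, defined in none of the sources used here, and this unit was used for levels and for no test.

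Differences were tested with edgeR 4.0.16 (R 4.3.3), with filterByExpr by group (minimum count 10), TMM scaling and the quasi-likelihood F-test, each comparison of groups on its own 8 libraries and the interaction on all 16. Benjamini-Hochberg adjustment ran across every tested gene (threshold 0.05), and SE is the log2 difference divided by the root of F. DESeq2 1.42.0, other scalings, no filter, a fit of all 16 libraries, a replicate block and leaving out libraries were tried as alternatives. The fits were tested on simulated data. Likeness used log2 values with a pseudocount of 0.5, genes with a mean of at least 1 RPM and an SD of at least 0.3.

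The members and lists were chosen with earlier results of these data known. Named genes were the 6 members, genes sharing a complex, ligand-receptor pair or family with one, up to 3 genes of a list with the largest called change and a mean of at least 1 RPM, and the 3 nearest genes of each member, save where stated. No 2 libraries of 1 group agreed within sampling noise (lowest mean chi-square per gene 13.2).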

Additional observations from a re-analysis of the deposited data

Results flagged for a closer look

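Higd1b in sham fibers had 1 library far from the others. Sham fiber library 3 was at 1.84 RPM, against 0.681, 0.804 and 0.687 RPM in the other 3, and its gap to the nearest was 0.893 of the range of the group, above Dixon's critical value for 4 samples. Chance flags about 1 in 20 groups, and 24 groups of values were screened. The same library had the highest progenitor, Schwann cell, other mural cell, endothelial, macrophage and muscle stem cell sums of the group. Their part in this value was not tested.

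The DEN effect differed between fibers and whole muscle in 3 of the 6 genes by a test of the difference itself (edgeR quasi-likelihood test, adjusted over all genes). The difference of the log2 effects was 1.32 for Notch3 (adjusted p = 0.0034), 1.19 for Cspg4 (adjusted p = 0.00074) and 0.79 for Pdgfrb (adjusted p = 0.0352). Fibers came from the EDL and whole muscle from the TA, so preparation and muscle cannot be told apart.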

How the results depend on the processing

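Over the 6 genes and 5 comparisons, 165 values from other settings kept direction and call, 6 reversed, 6 passed newly and 9 lost the call. For fits leaving out 1 library, the numbers were 258, 11, 4 and 15. With total counts in place of TMM scaling, the DEN difference in fibers became 0.288 for Rgs5 and 0.19 for Abcc9, that of Abcc9 in whole muscle became 0.0139, and that of Rgs5 between DEN fibers and DEN whole muscle became 0.0508, since this scaling moves the median of all genes. With all 16 libraries in 1 fit, Higd1b in fibers was at -9.1e-05, and without DEN fiber library 4 and sham fiber library 3, a choice made after seeing the data, Rgs5, Pdgfrb and Higd1b in fibers were at 0.0326, 0.4 and 0.498. Without 1 library, the DEN difference in fibers ran from -0.12 to 0.444 for Higd1b (-0.00199 without DEN library 2, -0.0378 without DEN library 3, -0.0927 and -0.0812 without sham libraries 1 and 2) and from -0.0374 to 0.343 for Pdgfrb (-0.0107 without DEN library 3), while Rgs5 stayed below 0, at -0.313 to -0.0559. That of Rgs5 between DEN fibers and DEN whole muscle ran from -0.0953 to 0.0806. The number of the 6 genes past the threshold of the interaction was 3 as reported, 5 without both libraries named above, and from 2 to 5 without 1 library. It was 5 without sham fiber library 3. Over all genes 2475 to 3769 passed the interaction in the fits without 1 library. The Pdgfrb interaction lost its call without DEN whole muscle library 1, 3 or 4 or DEN fiber library 1 or 3 (lowest value 0.692, highest adjusted p = 0.073). The Cspg4 difference between sham fibers and sham whole muscle ran from -0.454 to -0.259 and lost its call without sham whole muscle library 1, 2 or 3 or sham fiber library 1 or 4 (highest adjusted p = 0.078). In whole muscle all 6 genes passed in each fit without 1 library, beside 10279 to 10861 of all genes. Libraries were not taken as paired, since whether a number marks a shared animal was not given in the sources used here. Same-numbered deviations correlated above 0.1 in 8 of 16 pairs (-0.111 to 0.351) and in no comparison in every pair. A library correlated best with its own number in 8 of 16. With some pairs alike and others not, these correlations did not decide whether the numbers mark pairs. A fit with the replicate number as a block added Rgs5 to the interaction (0.472, adjusted p = 0.032) and Notch3 to sham fibers against sham whole muscle (-0.378, adjusted p = 0.014), and lost Higd1b between DEN fibers and DEN whole muscle (-0.351, adjusted p = 0.059). Higd1b rested on 33 to 161 counts per library.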
